A study of Macaca fascicularis with 38 samples.

Results

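The first biopsies of prefrontal cortical area 46, taken from cynomolgus macaques (Macaca fascicularis) before any ethanol, were compared between cohort 13 and cohort 9. The libraries were chosen by the table header, which marks each as before or after and gives the cohort. They are 16 of the 32 libraries in the deposited table, 8 from cohort 13 and 8 from cohort 9, each from a different animal. Each library is called here by its column in the table, X followed by the animal's number. The table header marks 5 animals of each cohort as drinkers and 3 as controls, which at the first biopsy is only their later assignment. No animal had yet been given ethanol, and the labels name no allele, other agent, age or sex. The second biopsies of the same 16 animals, taken after the period in which the drinkers had ethanol to drink by choice, are given beside the first ones. All 8 cohort 9 libraries carry the RNA code RNA140430RH in their titles. In cohort 13, 6 carry code RNA151215RH and 2, X10226 and X10227, carry code RNA171120RH. What the codes stand for is not stated, and no code holds libraries of both cohorts, so the cohort and the code cannot be told apart.

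Area 46 lies in the dorsolateral prefrontal cortex, whose tissue holds excitatory and inhibitory neurons, myelinating oligodendrocytes, astrocytes, microglia and vessels that carry blood. A biopsy takes in whatever blood and white matter lie in its path. Within minutes of strong synaptic activity or injury, neurons and other cells transcribe immediate early genes such as FOS, and glia and arriving leukocytes transcribe cytokine genes such as TNF.

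Messenger RNA abundance was given as TPM, transcripts scaled for gene length so that all genes of a library share a fixed total. The cohort 13 libraries held 18.46 to 43.46 M reads (mean 36.01 ± 7.84, SD, n = 8) and the cohort 9 libraries 15.03 to 22.83 M reads (mean 19.4 ± 2.9, SD, n = 8), an exact permutation p of 0.000932 (two-sided, 12870 splits). Of each library's TPM, 38.8% ± 12.5 (SD, n = 8) in cohort 13 and 44.6% ± 5.21 (SD, n = 8) in cohort 9 belonged to the 13 genes of the mitochondrial genome, a difference of -5.87 percentage points (exact permutation p = 0.238, two-sided). Without the 2 libraries of RNA code RNA171120RH, at 50.9% and 56.4%, that difference was -10.8 points (exact permutation p = 0.027). Markers of cortical neurons and glia were present in every library. SLC17A7, the vesicular glutamate transporter of cortical excitatory neurons, lay between 472 and 1018 TPM in cohort 13 and between 410 and 771 TPM in cohort 9.

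Cohort 13 had less leukocyte, erythrocyte, cytokine and immediate early message in its first biopsies than cohort 9, and more message of myelin, of several neuropeptides and of nuclear respiratory chain genes. By limma-trend with the later assignment as a covariate, 677 of 15225 genes were higher in cohort 13 (4.45%) and 1825 were lower (12%), at a Benjamini-Hochberg adjusted p below 0.05. Higher genes made up 27.1% of the calls, and the median difference over all tested genes was -0.04 on the log2(TPM + 1) scale. With each library scaled to a common median, 3084 genes were higher (20.3%) and 2082 lower (13.7%), so that higher genes made up 59.7% of the calls. The 8 cohort 13 values and the 8 cohort 9 values did not overlap for 27 genes that were higher (0.177%) and 480 that were lower (3.15%) in cohort 13. No called gene was called in the opposite direction in any of the 15 other settings or the 16 fits that each left out 1 library.

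Single libraries moved the count of higher genes. Left out in turn, X10226 and X10227 of cohort 13 gave 1460 and 1427 higher genes, and X10233 and X10234 gave 443 and 401. In cohort 9 the counts were 391 without X10197, 447 without X10198, 402 without X10200, 433 without X10203 and 391 without X10204. The count of lower genes stayed between 1319 and 2055 over all 16 such fits. Without both libraries of code RNA171120RH, 3637 genes were higher (23.9%) and 2028 lower (13.3%). Because the libraries with the most haemoglobin message stood apart, X10226 of cohort 13 and X10200, X10203 and X10204 of cohort 9, a fit without these 4 libraries was added after the data were seen. It called 200 genes higher (1.31%) and 709 lower (4.66%), 195 and 700 of which were also called with all 16 libraries. It kept 7 libraries of cohort 13 and 5 of cohort 9, and the part that fewer libraries have in the lost calls was not tested.

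**Figure D1:**
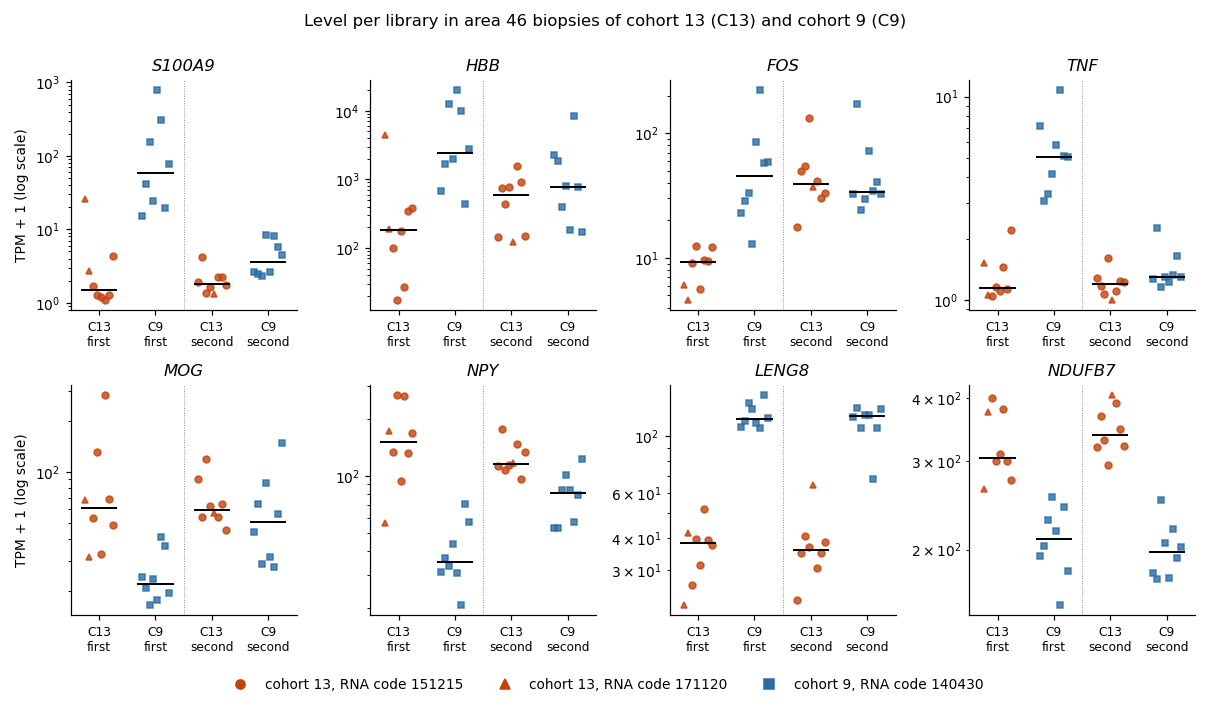
Level of 8 genes in each library, as TPM + 1 on a log axis, for cohort 13 and cohort 9 at the first biopsy (left of the dotted line) and at the second (right). Points are libraries, shapes are RNA codes and black lines are group medians. In the first biopsies FOS, TNF and LENG8 of the 8 cohort 13 libraries lie below all 8 cohort 9 libraries and NDUFB7 lies above them, and at the second biopsy the separation is still seen for LENG8 and NDUFB7 medians but not for FOS.

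Transcripts of circulating neutrophils and monocytes were lower in cohort 13. Of 17 tested genes of this list, 16 fell and none rose, with a median log2 difference of -2.24. Between the cohorts 8 did not overlap. Over all tested genes 12% fell and 3.15% lay lower without overlap. Members with a mean below 1 TPM in cohort 13, such as CAMP and PGLYRP1, passed the filter of a mean of 1 TPM only through cohort 9. The filter favoured falls among such members, so these counts and the median are a description only. S100A9, which encodes a subunit of the calcium-binding protein calprotectin of neutrophils, ranged from 0.097 to 24.6 TPM in cohort 13 (median 0.504) and from 14.1 to 778 TPM in cohort 9 (median 58.1). Its 7 lowest libraries all belonged to cohort 13, and only library X10226 reached the cohort 9 range. The log2 difference was -4.94 ± 0.74 (SE, adjusted p = 0.000288). Its partner S100A8 ranged from 0 to 6.51 TPM in cohort 13 and from 4.16 to 394 TPM in cohort 9, a log2 difference of -4.31 ± 0.70.

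CAMP, which encodes the antimicrobial peptide cathelicidin of neutrophil granules, had medians of 0.101 TPM in cohort 13 and 7.73 TPM in cohort 9 without overlap (-2.93 ± 0.45, adjusted p = 0.000356). PGLYRP1, a peptidoglycan recognition protein of neutrophil granules, had medians of 0.515 TPM in cohort 13 and 3.88 TPM in cohort 9 and differed by -1.94 ± 0.23, again without overlap. The receptor of the growth factor G-CSF, CSF3R, fell by 3.04 and the gelatinase MMP9 by 2.31 on the log2 scale, both without overlap. S100A12, at an adjusted p of 0.0516, was the member not called, with 0 to 0.204 TPM in cohort 13 and 0 to 18.9 TPM in cohort 9. Over the fits without 1 library the count of lower members was 13 to 17. Calls were lost in 8 of these 16 fits for FPR1, in 5 for VCAN and in 4 for CXCR2.

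Red cell message followed the same direction with more overlap. HBB, the beta chain of haemoglobin, ranged from 16.5 to 4402 TPM in cohort 13 (median 180) and from 441 to 19780 TPM in cohort 9 (median 2381), a log2 difference of -4.10 ± 0.95 (adjusted p = 0.00696). Library X10226 was the sole cohort 13 library above the lowest cohort 9 library, and the next cohort 13 library, X10236, had 384 TPM. ALAS2, the first enzyme of haem synthesis in red cell precursors, and CA1, a carbonic anhydrase of red cells, fell by 2.03 and 1.69 on the log2 scale. These 3 are all the erythrocyte transcripts that passed the filter of a mean of 1 TPM, out of 8 in the table. ALAS2 and CA1, at means of 0.837 and 0.144 TPM in cohort 13, passed it only through cohort 9. Lymphocyte transcripts moved less, with 3 of 8 tested members lower and a median of -0.62, among them GNLY, the cytotoxic granule protein granulysin, at 0.200 to 0.567 TPM in cohort 13 and 0.715 to 2.999 TPM in cohort 9. IL7R, the receptor of interleukin 7, and CD3E, a part of the T cell receptor complex, fell by 1.06 and 0.67. GNLY and IL7R passed the filter only through cohort 9. The CD3E call was lost without any one of X10229, X10232 and X10234 of cohort 13 and X10198, X10200 and X10203 of cohort 9.

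Summed over the list, neutrophil and monocyte transcripts reached 11.8 to 62.9 TPM in cohort 13 (median 23.1) and 63.3 to 1811 TPM in cohort 9 (median 183). In cohort 9 the sums were spread widely, with 506, 1811 and 740 TPM in X10200, X10203 and X10204, and with the lowest values in X10197 and X10206. Without those 3 libraries and X10226, 12 of the 17 neutrophil and monocyte members and all 3 erythrocyte members were called lower, with medians of -1.34 and -1.29. Of all genes 4.66% were lower in that fit. Its libraries were left out by their HBB, itself an erythrocyte member, so it is no check of the erythrocyte list. In drinkers alone 10 of the neutrophil and monocyte members and no erythrocyte member were called, where 352 of all 15225 genes were lower. In bulk tissue, fewer cells of a type and less RNA per cell cannot be told apart.

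Cytokine genes separated the cohorts in the same direction. Of 13 tested cytokine and NF-kB genes, 5 fell and none rose, with a median of -0.56, where 12% of all genes fell. TNF and CXCL8, at means of 0.335 and 0.167 TPM in cohort 13, passed the filter only through cohort 9. So did CCL3, at 1.745 TPM in its highest cohort 13 library and 0.702 TPM in the next. The filter favoured falls among such members, so this count and the median are a description only. TNF, the inflammatory cytokine tumour necrosis factor, ranged from 0.040 to 1.21 TPM in cohort 13 (median 0.148) and from 2.06 to 9.73 TPM in cohort 9 (median 4.07). No cohort 13 library reached the lowest cohort 9 library, and the log2 difference was -1.99 ± 0.23 (adjusted p = 3.55e-05). These levels rest on 112 reads over the 8 cohort 13 libraries and 833 reads over the 8 cohort 9 libraries.

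CCL3, a chemokine that attracts monocytes and other leukocytes, had a median of 0.448 TPM in cohort 13 and 10.6 TPM in cohort 9, a log2 difference of -2.89 ± 0.35 (adjusted p = 5.33e-05). CXCL8, the neutrophil-attracting interleukin 8, had medians of 0.107 TPM in cohort 13 and 3.23 TPM in cohort 9 (-2.36 ± 0.38), with 39 reads over cohort 13 and 1151 over cohort 9. Neither gene overlapped between the cohorts. IL1B, interleukin 1 beta, fell by 1.44 without overlap, and the monocyte chemokine CCL2 fell by 2.37 with overlap, at 0 to 9.03 TPM in cohort 13 and 2.70 to 37.1 TPM in cohort 9. The negative feedback genes of NF-kB signalling did not pass the test, with NFKBIA at 0.27 ± 0.16 and TNFAIP3 at -0.28 ± 0.15. All 5 were called again without the 4 libraries of high HBB, and all but IL1B in drinkers alone. Of all 15225 genes 709 and 352 were lower in these fits.

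**Figure D2:**
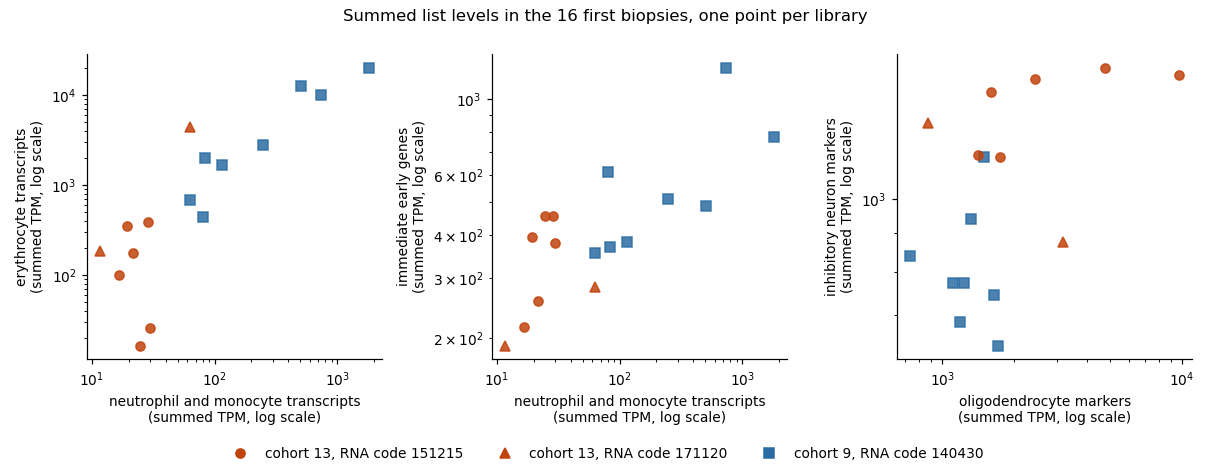
Summed TPM of marker lists in the 16 first biopsies, one point per library on log axes, for erythrocyte against neutrophil and monocyte transcripts, immediate early genes against neutrophil and monocyte transcripts, and inhibitory neuron against oligodendrocyte markers. Libraries X10203 and X10204 of cohort 9 have the highest immediate early sums, 774 and 1234 TPM, and are among the 3 highest in neutrophil and monocyte transcripts.

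Immediate early genes were lower in cohort 13 in part. Of 21 tested, 9 fell and none rose, with a median of -0.71, and 3 did not overlap. Over all tested genes 12% fell and 3.15% lay lower without overlap. FOS, a subunit of the transcription factor AP-1, ranged from 3.62 to 11.4 TPM in cohort 13 (median 8.25) and from 12.02 to 219.5 TPM in cohort 9 (median 44.5). The highest cohort 13 library lay just below the lowest cohort 9 library, X10201, and the log2 difference was -2.48 ± 0.43 (adjusted p = 0.000846). ZFP36, which encodes tristetraprolin, a protein that speeds the decay of cytokine messages, had medians of 3.14 TPM in cohort 13 and 21.5 TPM in cohort 9 without overlap (-2.54 ± 0.35). The antiproliferative gene BTG2 had medians of 8.82 TPM in cohort 13 and 30.6 TPM in cohort 9, again without overlap (-2.07 ± 0.30).

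FOSB, a further AP-1 subunit, fell by 1.68 and the neuron-specific activity factor NPAS4 by 1.81, and the activity factors EGR2 and IER2 fell by 0.998 and 0.705 on the log2 scale. NR4A1 and MCL1 also passed, at -0.74 and -1.06, but NR4A1 lost its call without any one of 7 libraries (X10229, X10232 and X10233 of cohort 13 or X10203, X10204, X10206 and X10207 of cohort 9) and MCL1 without X10229 of cohort 13 or X10203 or X10204 of cohort 9. Other members showed no called difference. ARC, a synaptic activity gene, had medians of 32.7 TPM in cohort 13 and 30.4 TPM in cohort 9 (-0.07 ± 0.19), JUN had 54.9 TPM in cohort 13 and 54.1 TPM in cohort 9 (-0.19 ± 0.26), and EGR4 differed by 0.04 ± 0.22. NR4A2 pointed the other way at 1.04 ± 0.36 (adjusted p = 0.0516).

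The immediate early sum per library was 191 to 456 TPM in cohort 13 and 355 to 1234 TPM in cohort 9. The highest sums were those of X10203 and X10204 of cohort 9, which had 19780 and 10020 TPM of HBB. Library X10206 of cohort 9 had 612 TPM of immediate early genes with 442 TPM of erythrocyte and 79.9 TPM of neutrophil and monocyte transcripts. Without the 4 libraries of high HBB, 4 members were called lower, with FOS at -1.86 and ZFP36 at -2.18, and the list median was -0.41. In that fit 4.66% of all genes were lower. The part that leukocytes or the handling of the tissue have in these differences was not tested.

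Most myelin genes were higher in cohort 13. Of 15 oligodendrocyte markers, 11 rose and none fell, all 15 differences were positive and the median was 1.40. Over all tested genes 4.45% rose. MOG, a glycoprotein of the outer myelin surface, ranged from 30.5 to 280.0 TPM in cohort 13 (median 59.8) and from 15.5 to 40.5 TPM in cohort 9 (median 21.0). The cohorts overlapped, since X10227 and X10232 of cohort 13 lay below the highest cohort 9 library, and the log2 difference was 1.53 ± 0.35 (adjusted p = 0.00677). MAL, a membrane protein of compact myelin, ranged from 26.2 to 241 TPM in cohort 13 and from 12.4 to 28.4 TPM in cohort 9 and rose by 1.59 ± 0.34. MBP, myelin basic protein, was not called, with medians of 729 TPM in cohort 13 and 798 TPM in cohort 9 (0.39 ± 0.37), and neither was MOBP at 0.23 ± 0.34.

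The homeobox gene NKX6-2, which acts in oligodendrocyte maturation, had a lowest value of 17.0 TPM in cohort 13 and a highest of 16.1 TPM in cohort 9, with a log2 difference of 1.61 ± 0.35 (adjusted p = 0.005). TMEM125 rose by 1.47 ± 0.30, and SOX10, a transcription factor of the whole oligodendrocyte lineage, by 1.05 ± 0.26. The summed marker level was 875 to 9715 TPM in cohort 13 and 737 to 1713 TPM in cohort 9, and it was highest in X10233, X10230 and X10226 of cohort 13. Without the libraries of high HBB 1 member was called higher, where 1.31% of all genes were, and the list median was 1.36. In drinkers alone 4 members were called higher, where 18 of all 15225 genes were, and the list median was 1.34. Of 8 precursor markers SOX10 alone rose and VCAN, which stands in the monocyte list too, alone fell, while PDGFRA, the growth factor receptor of precursors, differed by -0.71 ± 0.31 without a call. VCAN lost its call without any one of X10229 and X10232 of cohort 13 and X10200, X10203 and X10204 of cohort 9. With the mean oligodendrocyte marker level added as a covariate, 112 genes over the whole table were higher in cohort 13 and 2819 lower.

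Several neuropeptide genes of cortical interneurons were higher in cohort 13. Of 14 tested neuropeptide genes, 7 rose and 1 fell, with a median of 0.61. Over all tested genes 4.45% rose and 12% fell. NPY, neuropeptide Y, ranged from 54.9 to 265.9 TPM in cohort 13 (median 151) and from 19.7 to 70.2 TPM in cohort 9 (median 34.1). A single cohort 13 library, X10226, lay within the cohort 9 range, and the log2 difference was 1.93 ± 0.29 (adjusted p = 0.000313). SST, somatostatin, had medians of 367 TPM in cohort 13 and 204 TPM in cohort 9 (0.77 ± 0.15), and CCK, cholecystokinin, had 283 TPM in cohort 13 and 153 TPM in cohort 9 (0.85 ± 0.17).

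TAC1, which encodes the precursor of substance P, rose by 0.98, with medians of 86.1 TPM in cohort 13 and 29.8 TPM in cohort 9, and the gene of the CRH-binding protein, CRHBP, by 0.78. The dynorphin precursor PDYN, VIP and neurotensin, NTS, passed at 0.77, 0.68 and -0.99, but each lost its call without any one of X10230 and X10234 of cohort 13 and X10197, X10200 and X10203 of cohort 9, and of at least 4 further libraries. CRH, corticotropin-releasing hormone, was not called at 0.50 ± 0.18. Without library X10200 of cohort 9 the number of peptide genes that rose was 4 in place of 7, CRHBP among those lost. In drinkers alone the number was 1, where 18 of all 15225 genes rose. GAD1, the GABA-making enzyme of inhibitory neurons, was not called and had medians of 139.5 TPM in cohort 13 and 93.4 TPM in cohort 9 (0.37 ± 0.19, adjusted p = 0.192). It was called higher with median scaling (0.463, adjusted p = 0.00278), without code RNA171120RH (0.622), in controls alone (0.777) and by limma-voom (0.378). Of all genes 20.3% rose with median scaling and 23.9% without code RNA171120RH. Settings without a GAD1 call included drinkers alone (0.131), the oligodendrocyte covariate (0.128), no libraries of high HBB (0.375) and only code RNA171120RH in cohort 13 (-0.421). Among the 15 inhibitory neuron markers 4 rose, all of them peptide genes, and ADARB2 fell by 0.99.

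Of 13 markers of excitatory neurons 2 rose and 2 fell, where 4.45% of all tested genes rose and 12% fell. FEZF2, a transcription factor of deep-layer projection neurons, had medians of 18.5 TPM in cohort 13 and 7.39 TPM in cohort 9 (1.28 ± 0.25, adjusted p = 0.00232), and NEUROD6, a factor of cortical projection neurons, had 52.2 TPM in cohort 13 and 17.8 TPM in cohort 9 (1.22 ± 0.29). CUX2, a factor of upper-layer neurons, had medians of 22.8 TPM in cohort 13 and 35.2 TPM in cohort 9 (-0.75 ± 0.21), and the kinase gene CAMK2A passed at -0.66 but lost its call without X10229 of cohort 13 or X10200 of cohort 9. SLC17A7 itself differed by 0.27 ± 0.17 without a call. The count of rises depended on the setting: 7 rose and 2 fell with median scaling, where SLC17A7 was called at 0.355 (adjusted p = 0.0209), 7 and 2 without code RNA171120RH, and 6 and 0 in controls alone. The count of rises was 4 without library X10226. Of all genes 20.3% rose and 13.7% fell with median scaling, and 23.9% and 13.3% without code RNA171120RH. In controls alone 1982 of all 15225 genes rose and 716 fell. PCP4, a calmodulin-binding protein gene of cortical neurons, had the smallest p of all genes that rose without overlap at or above the median level, at 90.2 to 144 TPM in cohort 13 and 28.6 to 79.1 TPM in cohort 9 (1.18 ± 0.19, adjusted p = 0.000558).

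Astrocyte, microglia and vascular markers held few calls, to be read against the 12% of all genes that were lower. Of 12 astrocyte markers 3 fell, none rose and all differences were negative, with a median of -0.47. SLC1A2, the main glutamate transporter of astrocytes, ranged from 8.25 to 171 TPM in cohort 13 and from 93.4 to 225 TPM in cohort 9 (-1.94 ± 0.49, adjusted p = 0.0121). Its lowest libraries were X10227 and X10229, and 2 of the 8 cohort 13 libraries lay above the lowest cohort 9 library. ALDH1L1, a folate enzyme of astrocytes, fell by 0.68, whereas GFAP had medians of 244 TPM in cohort 13 and 376 TPM in cohort 9 and was not called (-0.35 ± 0.31). The count of lower members was 5 without library X10226 and 5 without library X10236. STEAP4, a metalloreductase gene placed in the reactive astrocyte list, had at most 0.17 TPM in cohort 13 and 0.537 to 47.9 TPM in cohort 9. It was highest in X10203 and X10204, and it passed the filter only through cohort 9.

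Of 17 microglia markers 2 fell, a share near that of all genes, ITGAM by 1.12 and CD68 by 0.63, and TYROBP, a signalling adaptor of microglia, had medians of 21.9 TPM in cohort 13 and 23.1 TPM in cohort 9 (-0.15 ± 0.21). ITGAM, an integrin, is also carried by neutrophils and monocytes. Of 13 endothelial markers 1 fell, below the share of all genes. It was SLCO1C1, a transporter of the blood-brain barrier, at -0.765 ± 0.25, and its call was lost without any one of 10 libraries, all but X10226, X10227, X10230 and X10236 of cohort 13 and X10198 and X10203 of cohort 9. With median scaling 1 endothelial marker rose and 1 fell, below the shares of all genes (20.3% and 13.7%). CLDN5, a tight junction protein of vessels, had medians of 38.6 TPM in cohort 13 and 40.5 TPM in cohort 9 (0.05 ± 0.21), with a sign that turned in 8 of the alternatives. Pericyte and smooth muscle markers counted 3 lower of 9, with ACTA2, smooth muscle actin, at medians of 5.46 TPM in cohort 13 and 15.97 TPM in cohort 9 (-1.29 ± 0.32). PDGFRB, the growth factor receptor of pericytes, and MYH11, the myosin heavy chain of smooth muscle, fell by 0.68 and 0.87, but MYH11 lost its call without X10229 of cohort 13 or X10197, X10200, X10203 or X10206 of cohort 9. The collagen genes COL1A1 and COL1A2 of fibroblasts fell by 1.37 and 1.51, while IGFBP2 of the same list rose by 0.71. COL1A1, at 2.03 TPM in its highest cohort 13 library and 0.4 TPM in the next, passed the filter only through cohort 9. The fibroblast count was 1 higher and 2 lower of 11, with 5 lower without X10236. Of the 11 reactive astrocyte genes CHI3L1 rose by 0.80, STEAP4 and EMP1 fell by 2.49 and 1.04, and VIM, vimentin, was not called (-0.47 ± 0.18). The CHI3L1 call was lost without any one of 11 libraries, all but X10226, X10227 and X10232 of cohort 13 and X10203 and X10206 of cohort 9. The EMP1 call was lost without X10227, X10229, X10230 or X10232 of cohort 13 or X10197, X10200, X10206 or X10207 of cohort 9. EMP1, at a mean of 0.406 TPM in cohort 13, also passed the filter only through cohort 9. The filter favoured falls among such members, so the lower counts of these lists are a description only. Over the fits without 1 library the reactive count was 0 to 1 higher and 1 to 4 lower.

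Of the choroid plexus and ependymal markers 1 of 4 fell, RSPH1 of motile cilia, by 1.005, and of the skeletal muscle markers 1 of 2, the troponin C gene TNNC2, by 0.82. Without X10226 the counts were 2 lower in the first list and 1 higher and 1 lower in the second. These lists were at low summed values of 11.01 to 17.6 TPM and 13.3 to 24.8 TPM in cohort 13 and of 20.6 to 32.2 TPM and 18.5 to 30.9 TPM in cohort 9.

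**Figure D3:**
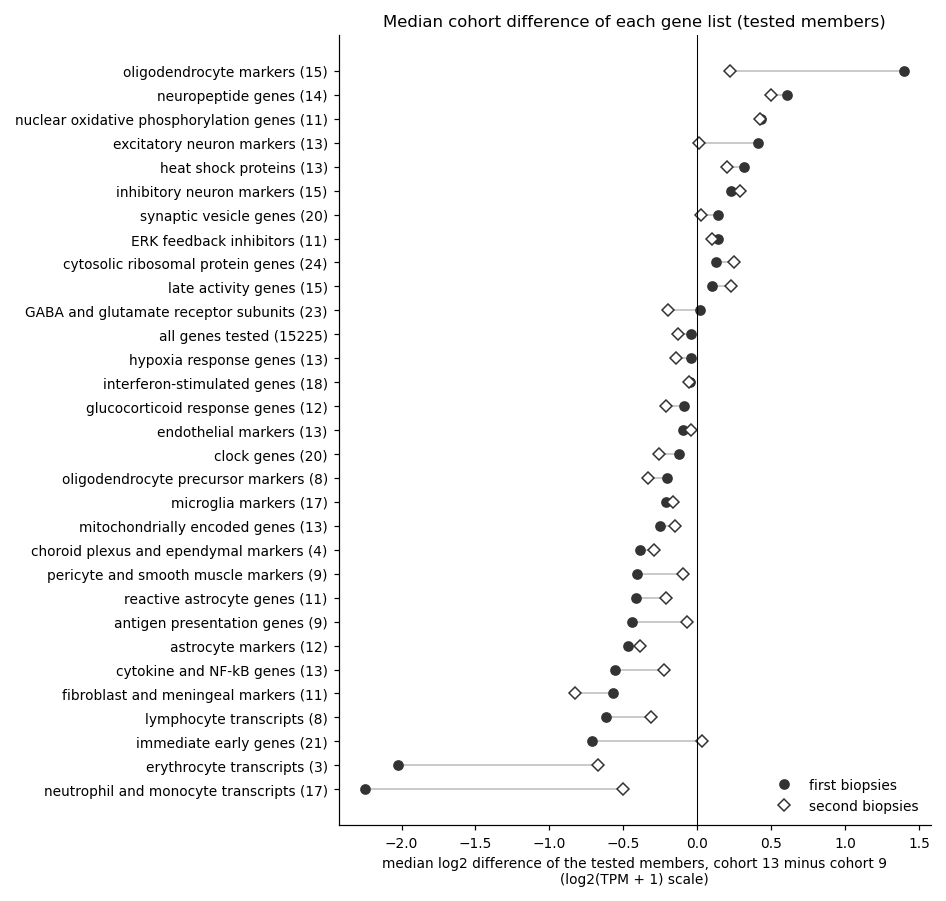
Median log2 difference between cohort 13 and cohort 9 over the tested members of each gene list, in the first biopsies (filled circles) and the second biopsies (open diamonds), with the number tested in brackets. Neutrophil and monocyte transcripts lie lowest in the first biopsies at -2.24 and oligodendrocyte markers highest at 1.40, while in the second biopsies these medians are -0.51 and 0.22.

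Of 11 tested nuclear genes of oxidative phosphorylation, which encode subunits of the respiratory chain, 5 rose in cohort 13, none fell and all differences were positive, with a median of 0.43. Over all tested genes 4.45% rose and 12% fell. SDHB, the iron-sulphur subunit of succinate dehydrogenase, had medians of 257 TPM in cohort 13 and 145 TPM in cohort 9 (0.77 ± 0.17, adjusted p = 0.00455), and NDUFV2, a core subunit of complex I, had 47.4 TPM in cohort 13 and 24.8 TPM in cohort 9 (0.72 ± 0.17). NDUFS4 and NDUFA1 of complex I rose by 0.50 and 0.47, but the NDUFA1 call was lost without X10232 of cohort 13 or X10197 or X10204 of cohort 9. Further subunit genes stood among the largest rises without overlap. NDUFB7 lay between 263 and 399 TPM in cohort 13 and between 155 and 253 TPM in cohort 9 (0.63 ± 0.14), and NDUFA7 of complex I and ATP5D of the ATP synthase rose by 0.66 and 0.60. Of the 13 mitochondrially encoded genes, 2 were called lower, ATP8 at -1.18 and ND6 at -0.62, the ND6 call being lost without any one of 11 libraries, all but X10226, X10227 and X10232 of cohort 13 and X10201 and X10206 of cohort 9. Without the libraries of code RNA171120RH the mitochondrially encoded count was 7 lower and the nuclear count 8 higher, and with median scaling they were 1 and 7. Of all genes 13.3% were lower and 23.9% higher in the former setting, and 13.7% and 20.3% in the latter. The nuclear count was 3 without library X10204. In drinkers alone no nuclear member was called, and of all 15225 genes 18 were called higher.

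The largest differences without overlap at or above the median level of 10.7 TPM included genes outside these lists. LENG8 had 21.0 to 51.1 TPM in cohort 13 (median 37.4) and 107 to 143 TPM in cohort 9 (median 115), a log2 difference of -1.78 ± 0.16 (adjusted p = 4.62e-06). RPL26, a ribosomal protein of the large subunit, had medians of 12.03 TPM in cohort 13 and 64.3 TPM in cohort 9 (-2.09 ± 0.24). Ribosomal protein genes have many near-identical copies, and the part that a split of reads among them has in this difference was not tested. Within cohort 13 the RNA171120RH libraries X10226 and X10227 had 39.1 and 25.3 TPM of RPL26, and the others 8.94 to 14.3 TPM. At the second biopsy X10232, which carries that code there, had 31.0 TPM, and the next highest cohort 13 library, X10230, had 13.2 TPM. Of the 24 ribosomal protein genes of their list, 1 rose and none fell.

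GNB3, a G protein beta subunit, had medians of 10.5 TPM in cohort 13 and 29.5 TPM in cohort 9 (-1.41 ± 0.21). The kinase gene MAP3K6 had medians of 5.84 TPM in cohort 13 and 14.9 TPM in cohort 9 (-1.26 ± 0.20), and PITPNM3, CRIP3, PAPLN and LY6G5B fell by 1.70, 1.49, 1.16 and 1.76. Outside that level limit ADAM33, a metalloprotease gene, and STAC3, a gene of muscle excitation, had the smallest p beside LENG8 among genes with a symbol that fell, at -1.78 ± 0.17 and -1.94 ± 0.20. Among rises, NOL3, a repressor of apoptosis, had medians of 13.6 TPM in cohort 13 and 6.98 TPM in cohort 9 (0.93 ± 0.17), and MIEN1 had 124 TPM in cohort 13 and 72.6 TPM in cohort 9 (0.77 ± 0.13). FLYWCH2, SIVA1 and POLR2J, a subunit of RNA polymerase II, rose by 0.70, 0.69 and 0.63.

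Other lists held few calls, to be read against the 4.45% of all genes that were higher and the 12% that were lower. No heat shock gene (of 13) and no ERK feedback inhibitor (of 11) was called by limma-trend, at medians of 0.31 and 0.14. However, 7 heat shock genes rose with median scaling and 6 without code RNA171120RH, where 20.3% and 23.9% of all genes rose. DUSP1, a MAP kinase phosphatase of the feedback list, differed by -0.885 ± 0.33 (adjusted p = 0.0707). The chaperone HSPA8 differed by 0.56 ± 0.22 (adjusted p = 0.092). Of 20 clock genes PER1 alone fell, with medians of 14.0 TPM in cohort 13 and 24.3 TPM in cohort 9 (-0.67 ± 0.18). Of 18 interferon-stimulated genes 1 rose and 1 fell, and IFI6 was the one that rose, at 185 to 363 TPM in cohort 13 and 96.2 to 199 TPM in cohort 9 (0.88 ± 0.17). IFI44 fell by 0.58, but its call was lost with median scaling and without any one of X10232 and X10234 of cohort 13 and X10200, X10203, X10204 and X10207 of cohort 9, which left no member lower.

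HILPDA, a lipid droplet gene induced by low oxygen, rose by 0.71, the only call among 13 hypoxia response genes, and VEGFA was not called at -0.44 ± 0.15. Of 23 GABA and glutamate receptor subunits 2 fell, GABRB1 by 1.11 and GRIN2C by 0.78, and none rose. With median scaling 5 rose and 3 fell, near the shares of all genes in that setting (20.3% and 13.7%). Without code RNA171120RH 7 rose and 2 fell, where 23.9% of all genes rose and 13.3% fell. Without X10227 alone 4 rose. Late activity genes counted 3 higher of 15, synaptic vesicle genes 2 higher and 1 lower of 20, glucocorticoid response genes 3 lower of 12 and antigen presentation genes 2 lower of 9. NRN1, neuritin, rose by 0.74 among the late activity genes, whose count was 2 to 4 without X10226, X10227 or X10229 of cohort 13 or X10201, X10206 or X10207 of cohort 9 and 1 without any one of the 10 other libraries. The glucocorticoid members were PER1, FKBP5, a chaperone of the receptor, and PDK4, a kinase that restrains pyruvate use, the last 2 at -0.99 and -0.998. The glucocorticoid count was 1 without X10229, X10232 or X10234 of cohort 13 or X10204 of cohort 9. With median scaling 5 late activity genes rose, 3 glucocorticoid genes rose and 5 fell, 3 hypoxia genes rose and 2 fell, and 1 clock gene rose and 2 fell. Of all genes 20.3% rose and 13.7% fell with that scaling.

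The synaptic vesicle genes that rose were SYT1, the calcium sensor of release, by 0.89 and the GTPase RAB3A by 0.64, and complexin 2, CPLX2, fell by 0.88. Neither rise was called without any one of X10233 and X10234 of cohort 13 and X10197, X10200, X10203 and X10204 of cohort 9. Without X10226 or X10227 of cohort 13 4 rose, and 1 rose without X10229, X10230, X10232 or X10236 of cohort 13 or X10198 or X10201 of cohort 9. CPLX2 was not called without X10229 or X10232 of cohort 13 or X10200 or X10201 of cohort 9. With median scaling 7 vesicle genes rose and 4 fell, where 20.3% of all genes rose and 13.7% fell. The antigen presentation genes that fell were the regulator NLRC5, by 0.87, and the peptide transporter subunit TAP1, by 0.67. TAP1 lost its call, leaving 1 lower, without X10229, X10232, X10234 or X10236 of cohort 13 or X10200, X10203 or X10204 of cohort 9.

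In the second biopsies 1636 of 15225 genes were higher in cohort 13 (10.7%) and 3849 lower (25.3%), and with median scaling 4196 were higher (27.6%) and 2448 lower (16.1%). Of the genes higher in the first biopsies, 560 were also called higher in the second (82.7% of the first and 34.2% of the second list). Of those lower, 1448 were again called lower (79.3% and 37.6%), and none was called the opposite way. The animals are the same, so this is no independent sample, and the RNA codes again go with the cohorts.

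LENG8 differed by -1.60, RPL26 by -2.25, SLC1A2 by -2.54, MIEN1 by 0.70 and NDUFB7 by 0.80 in the second biopsies, against -1.78, -2.09, -1.94, 0.77 and 0.63 in the first. FOS had medians of 38.3 TPM in cohort 13 and 32.5 TPM in cohort 9 (-0.05, adjusted p = 0.928), against -2.48 in the first biopsies. ZFP36 and BTG2 differed by -0.30 and -0.31 without a call. Of the immediate early list 1 was higher and 2 lower with a median of 0.03, and of the oligodendrocyte list 1 was higher with a median of 0.22. MOG had medians of 58.7 TPM in cohort 13 and 49.3 TPM in cohort 9, a difference of 0.34 without a call. Neutrophil and monocyte transcripts had 11 members lower with a median of -0.51, and S100A9 differed by -1.05. HBB had medians of 585 TPM in cohort 13 and 783 TPM in cohort 9 and was not called (-1.01).

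**Figure D4:**
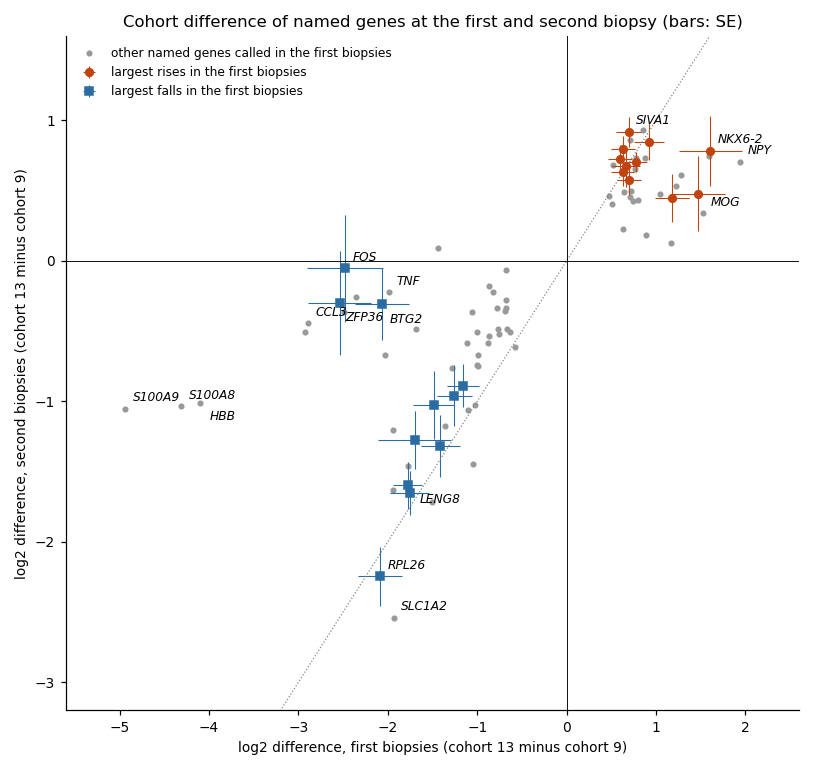
Log2 difference between cohort 13 and cohort 9 of the named genes called in the first biopsies, at the first (x axis) and the second biopsy (y axis), with bars for the SE of the 22 genes of largest difference. The dotted line marks equal values. LENG8 and RPL26 lie near the line, whereas FOS, ZFP36 and BTG2 lie near 0 on the y axis.

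The change in the cohort difference between the biopsies was tested with the animal as a block, and 3 genes passed (0.0197%). The filter of a mean of 1 TPM used the first biopsies alone. All 3 passed it only through cohort 9, with means below 1 TPM in every other group. It favoured such a change among these genes, so the 3 calls are a description only. TNF had a first minus second difference of -1.77 ± 0.28 (adjusted p = 0.0302), with second biopsy medians of 0.199 TPM in cohort 13 and 0.296 TPM in cohort 9. CXCL8 had -2.10 ± 0.35 (adjusted p = 0.0386), with second medians of 0.132 TPM in cohort 13 and 0.376 TPM in cohort 9. The protein-coding gene LOC102118223, which no source used here names, had -2.91 ± 0.41 (adjusted p = 0.014). It had medians of 0.332 TPM in cohort 13 and 12.3 TPM in cohort 9 at the first biopsy and of 0.141 TPM in cohort 13 and 0.564 TPM in cohort 9 at the second. Without the block CXCL8 was not called (adjusted p = 0.0857) and CCL3 was (adjusted p = 0.0281), so that 3 genes passed again. Over the 3 fits, the third with median scaling, the adjusted p lay between 0.0293 and 0.0857 for CXCL8 and between 0.0281 and 0.0719 for CCL3. FOS, S100A9 and NPY had an adjusted p of 0.179, so a change of their cohort difference was not shown.

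The differences moved with the counted length of a gene. Lengths relative to one another were read from the TPM that one read is worth, and the tested genes were divided into 5 bins of 3045. In the bin of shortest genes the median difference was 0.12, with 13.4% higher and 9.79% lower in cohort 13. In the bin of longest genes it was -0.21, with 0.46% higher and 17.7% lower, and the bins between followed in order. In the second biopsies the medians of the shortest and longest bins were 0.13 and -0.40. The median also followed the level, at 0.17 in the bin of highest mean TPM and -0.19 in the bin of lowest. Of the 11 genes of largest rise without overlap, all but TMEM125 and NOL3 belong to the shortest bin. So do SDHB, NDUFV2, NDUFS4, NDUFA1, NPY, SST, CCK and MAL, which also rose. MOG, SOX10, FEZF2 and NEUROD6, which rose too, belong to longer bins. Among genes that fell, RPL26, LY6G5B, CRIP3, S100A9, HBB and CAMP belong to the shortest bin, and LENG8 and SLC1A2 to bin 4. Read depth, RNA code and cohort go together here and cannot be told apart as sources of this pattern.

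**Figure D5:**
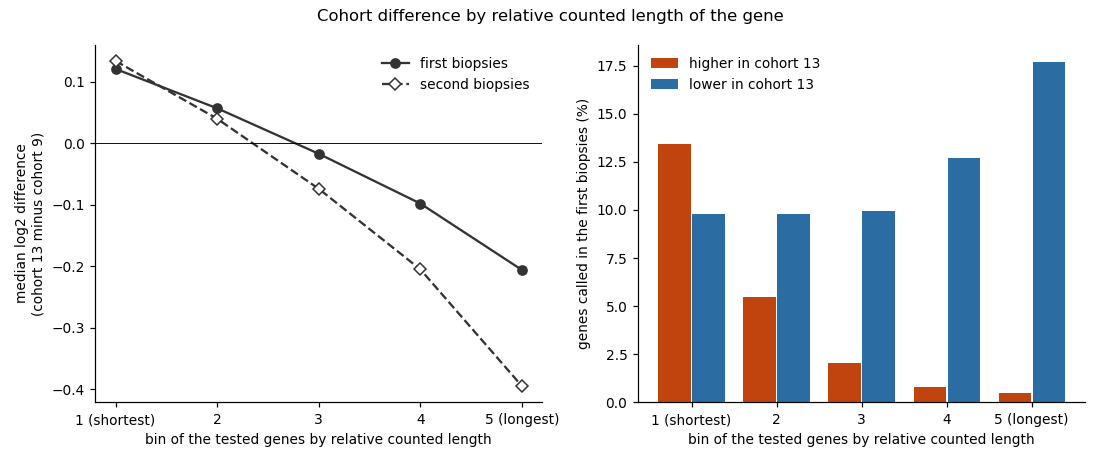
Median log2 difference between cohort 13 and cohort 9 by bin of relative counted length in the first and second biopsies (left), and percent of genes called higher or lower in cohort 13 in the first biopsies (right). The median is 0.12 in the shortest bin and -0.21 in the longest in the first biopsies.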

How the data were processed

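Polyadenylated RNA of area 46 biopsies had been sequenced as single-end, unstranded libraries, per the labels' protocols. STAR 2.5.2b, HTSeq 0.6.1p1 and DESeq2 are named in the submitters' processing notes, and the sources used here give neither genome build nor annotation. The authors deposited 1 table of TPM for 29958 genes in 32 libraries of 16 animals. The second biopsies of 6 further animals in the labels were not analysed here. The TPM of all 29437 genes above 0 in at least 2 libraries were whole multiples of a 1-read step (tolerance 1e-06, 100.0% of genes), so whole reads were recovered and used for depth and limma-voom.

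Genes with a mean of at least 1 TPM over the 16 first biopsies were tested on log2(TPM + 1), which understates the change of low genes, with limma-trend 3.58.1 in R 4.3.3. Cohort and later assignment were terms, and p-values were adjusted after Benjamini and Hochberg over all 15225 genes. "Called", "rose" and "fell" mean an adjusted p below 0.05. Second biopsies were fitted the same way, and the difference between biopsies with the animal as a block. Pairing comes from the animal, and deviations from the group means correlated above 0.1 in 14 of 16 animals (median 0.324, lowest -0.185). P-values measure the spread between these animals. No 2 libraries agreed within sampling noise.

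The members, the 34 gene lists (397 of 535 symbols tested, 3 lists with no member in the table) and the tests were chosen with earlier results of these data known. Named genes were, in each direction, the 12 with a symbol and the largest difference without overlap at or above the median level (11 rises met this) and the 3 with the smallest p, and, in each list, its first member and the 3 called members with the smallest p. A few further genes that met these rules are not reported here. Other list members given were picked after their values were seen. Reads of overlapping genes cannot be told apart without strand. Alternatives were other scalings, pseudocounts, filters, covariates, library sets, voom and reads thinned to 15.03 M. The fits were checked on simulated counts.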

Additional observations from a re-analysis of the deposited data

Results flagged for a closer look

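In 15 of 208 groups of 8 values, 1 library lay farther from its neighbour than Dixon's critical ratio of 0.526 of the group's range on the log2(TPM + 1) scale, where chance gives about 1 in 20. Library X10226 of cohort 13 accounted for 6 of them. It was the highest of its cohort in ALAS2 (5.44 TPM, the next 0.283), CA1 (0.745, the next 0.263), S100A9 (24.6, the next 3.31), S100A8 (6.51, the next 0.672) and COL1A1 (2.03, the next 0.4), and the lowest in CCK (172.5 TPM, the next 258).

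Further cohort 13 libraries stood apart in STEAP4 (X10234 highest, 0.17 TPM), EMP1 (X10236 highest, 1.06 TPM), CCL3 (X10236 highest, 1.75 TPM), CXCL8 (X10233 highest, 0.612 TPM), B2M (X10227 lowest, 227 TPM) and GABRB1 (X10232 lowest, 2.74 TPM). Cohort 9 libraries stood apart in MBP (X10207 lowest, 329.6 TPM), RPLP1 (X10207 lowest, 343 TPM) and VEGFA (X10203 lowest, 13.9 TPM).

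The cohort difference changed between the biopsies for 3 genes by the interaction test of limma, with first minus second values of -2.10 for CXCL8, -2.91 for LOC102118223 and -1.77 for TNF on the log2 scale. All 3 passed the filter only through the first biopsies of cohort 9, which favoured such a change. TNF did not overlap between the cohorts in the first biopsies, with every one of the 8 cohort 13 libraries below every one of the 8 cohort 9 libraries.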

How the results depend on the processing

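The numbers of genes higher and lower in cohort 13 depended on the setting. They were 84 and 5862 with only the RNA171120RH libraries of cohort 13, 3637 and 2028 without them, 6762 and 2194 with array weights, 1982 and 716 in controls alone and 18 and 352 in drinkers alone. They were 3084 and 2082 with median scaling, 1152 and 4163 with TPM computed without mitochondrial genes, 1472 and 2848 by limma-voom, and 1564 and 2880 by voom on thinned reads. They were 112 and 2819 with the oligodendrocyte covariate, and 200 and 709 without the 4 libraries of high HBB, a setting added after the data were seen. A filter of 5 TPM gave 839 lower and no filter 3122. Leaving out 1 library gave 391 to 1460 higher. In the second biopsies median scaling gave 4196 and 2448. The mitochondrial difference was -10.8 points without code RNA171120RH and -8.38 to -3.42 over the fits without 1 library. The causes were not tested.

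Without the replicate block, that is without pairing the animal's biopsies, 3 genes had a cohort difference that changed between biopsies, against 3 with it, TNF and LOC102118223 among both. Median scaling gave 4.

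Differences that turned sign were uncalled apart from CHI3L1, PCSK1, SCG2 and SYT1. With only code RNA171120RH these were SLC17A7 (-0.087), GAD1 (-0.421), CHI3L1 (-0.001), TYROBP (0.319), ACTA1 (-0.082), PCSK1 (-0.368), SCG2 (-0.039), BDNF (-0.109), HSPA8 (-0.225), SYT1 (-0.347) and CRH (-0.211). With the oligodendrocyte covariate they were SLC17A7 (-0.007), MBP (-0.741) and CLDN5 (-0.04). CLDN5 also turned with array weights (-0.153), without mitochondrial genes (-0.072), without code RNA171120RH (-0.052) and in 4 of the fits without 1 library, which gave -0.046 to 0.163. Array weights turned KL (0.021), IFI27 (-0.087) and RPS2 (0.058). B2M and RPS2 turned in controls alone (0.253 and 0.177), without code RNA171120RH (0.059 and 0.034) and without X10227, the fits without 1 library giving -0.257 to 0.055 for B2M and -0.168 to 0.004 for RPS2. Without high HBB, TYROBP was 0.032 and B2M 0.201. Of the 85 called genes named by rule and reported, 81 kept their call under median scaling and 51 without high HBB.

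Read depth differs between the cohorts, and levels below about 1 TPM rest on few reads.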
